A study of Mus musculus with 6 samples.

Results

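A set of 10 genes of MHC class I antigen presentation was followed in regulatory T cells (Tregs) sorted from the bone marrow (BM) of mice with chronic myeloid leukemia (CML) and of naive mice. The members were the class I heavy chains H2-K1 and H2-D1, the light chain B2m, the peptide transporter and loading genes Tap1, Tap2 and Tapbp, the immunoproteasome subunits Psmb8, Psmb9 and Psmb10, and the transcriptional coactivator Nlrc5. They were taken by name from the 36930 features of the deposited tables, all 10 names occurred once, and all 10 passed the filter for testing (a mean of at least 1 RPKM, reads scaled to transcript length and to library size, over the 6 libraries), as did 13923 features in all. RNA was sequenced in 3 naive and 3 CML mice, with 1 library for each mouse. All 6 mice were of the Foxp3-DTR-GFP strain and genotype and 8 weeks old, so the Foxp3 locus drove a diphtheria toxin receptor and GFP in the Tregs of both groups. The CML mice were nonirradiated and had received syngeneic LSKs (lineage-negative, Sca-1+, c-kit+ BM cells) transduced with a BCR-ABL1-GFP retrovirus, and their Tregs were taken 15 days after CML induction, whereas naive mice carried no leukemia. Leukemia cells of this model thus carry GFP, as do the Tregs. Values of 3 libraries are given throughout in the order of replicates 1, 2 and 3.

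MHC class I molecules show fragments of a cell's own proteins to CD8+ T cells. Proteasomes cut the proteins, the Tap1-Tap2 transporter carries the peptides into the endoplasmic reticulum, and Tapbp (tapasin) bridges the transporter to a heavy chain paired with B2m. Interferon gamma is known to raise this whole machinery through Irf1 and Nlrc5, and T cells carry it at high levels at rest.

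In GENCODE M21 (GRCm38, the build in the submitters' processing notes), 7 of the 10 protein-coding genes lie in the MHC region of chromosome 17, 2 (Psmb10 and Nlrc5) on chromosome 8 and 1 (B2m) on chromosome 2. Psmb9 (34181987 to 34187764, minus strand), Tap1 (34187553 to 34197225), Psmb8 (34197721 to 34201454) and Tap2 (34203527 to 34216321) follow each other on chromosome 17. H2-K1 lies at 33996017 to 34000347 and H2-D1 at 35262730 to 35267499 on the same chromosome. The RefSeq table of promoters (GRCm38.p6) held 8 of the 10 genes, without Tap2 and Nlrc5. Upstream sequences of 5 members are shown because they hold the letters read by the known regulators of class I genes and because the RefSeq starts of Tap1 and Psmb9 (34187556 and 34187330) lie back to back with 225 bases between them. The GENCODE models given above differ here, since the Psmb9 model reaches past the start of Tap1 and both overlap. Capitals mark matches on either strand to CCAAT (the core of the Y box), TGACG (the core of the X2 box), GAANNGAAA (an interferon regulatory factor core) and an NF-kB core (GGGA and CC with any 4 bases between them), and neighboring matches may overlap. The first 3 sequences are the 250 bases before the RefSeq start, on the gene's strand, at chr17:34000348-34000597, chr17:35262844-35263093 and chr2:122147437-122147686. The H2-D1 window lies inside the GENCODE model of H2-D1 given above, which starts at 35262730. The last is the stretch between the RefSeq starts of Psmb9 and Tap1, at chr17:34187331-34187555, on the strand of Tap1.
H2-K1: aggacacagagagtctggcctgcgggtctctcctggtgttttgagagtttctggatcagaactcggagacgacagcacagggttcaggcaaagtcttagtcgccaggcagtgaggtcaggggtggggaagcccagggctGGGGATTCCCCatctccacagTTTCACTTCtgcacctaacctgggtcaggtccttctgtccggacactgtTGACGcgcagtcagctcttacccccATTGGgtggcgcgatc
H2-D1: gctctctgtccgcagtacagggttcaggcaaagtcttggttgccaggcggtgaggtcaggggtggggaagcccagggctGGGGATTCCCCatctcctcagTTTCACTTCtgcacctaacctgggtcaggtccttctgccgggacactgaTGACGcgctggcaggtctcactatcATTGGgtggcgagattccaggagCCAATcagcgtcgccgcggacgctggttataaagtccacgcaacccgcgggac
B2m: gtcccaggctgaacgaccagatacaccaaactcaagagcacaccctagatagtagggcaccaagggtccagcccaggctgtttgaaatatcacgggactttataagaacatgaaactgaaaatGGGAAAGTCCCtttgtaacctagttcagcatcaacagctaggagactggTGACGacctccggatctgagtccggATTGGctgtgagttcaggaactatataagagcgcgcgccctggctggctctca
Tap1 and Psmb9: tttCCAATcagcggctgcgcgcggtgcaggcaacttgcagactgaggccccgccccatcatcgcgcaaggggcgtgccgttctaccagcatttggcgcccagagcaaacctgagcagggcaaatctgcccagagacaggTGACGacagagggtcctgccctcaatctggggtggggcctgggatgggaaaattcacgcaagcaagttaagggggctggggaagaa

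Both heavy chain genes carried the NF-kB, interferon regulatory factor, TGACG and CCAAT letters in the same order. Among the 8 members with a promoter, TGACG occurred in 5 and CCAAT in 6, against 17.8% and 33.8% of the 32851 promoter windows of the same length, where Tap1 and Psmb9 were each counted although their windows overlap. GAANNGAAA occurred in 2 members (6.31% of all windows) and the NF-kB core in 3 (17.6%). These matches describe letters and are not measured binding sites.

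Depth differed between the libraries. By the size of the steps in the values, the libraries held an estimated 0.829 to 7.61 (CML) and 5.19 to 9.75 (naive) times 1e6 reads, with the lowest number in CML replicate 2. In that library the member with the fewest reads was Psmb10, with about 68.9 reads, and the lowest in any other library was about 113 reads (Psmb9, CML replicate 3). In CML replicate 2, the 10 highest features took 50.7% of the total of all values, whereas their share was 28.5% to 31.3% elsewhere. The markers of the labelled cell were present in every library (Foxp3 at 297 to 468 RPKM and Cd3e at 299 to 453 RPKM). Of the other cell types, the summed level of 8 erythroid markers ran from 41.8 to 250.5 RPKM in CML and from 5.93 to 31.6 RPKM in naive mice, without overlap. The 10 neutrophil markers summed to 20.9, 209 and 234 RPKM in CML libraries and to 28.2 to 64.1 RPKM in naive libraries, with Mmp8 at 0 in all. Both CD8 markers (51.1 to 74.2 against 26.2 to 58.7 RPKM), 10 myeloid and antigen-presenting cell markers (288 to 437 against 259 to 589 RPKM) and 6 B cell markers (3.18 to 8.80 against 8.42 to 10.7 RPKM, with Pax5 and Ebf1 at 0 in all) overlapped between the groups. Class I genes are expressed by nucleated cells in general, and the part of these other cells in the values below was not tested. In bulk RNA, fewer cells of a type and less RNA per cell cannot be told apart.

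MHC class I transcripts were among the most abundant of BM Tregs in both groups, and no member differed between CML and naive mice past the threshold of the test. None of the 10 members passed an adjusted p of 0.05 in limma, and none passed an unadjusted p of 0.05, compared with 0.172% of all genes tested at the adjusted p with a fold of 1.5 and 9.68% at the unadjusted p. The fitted differences (CML minus naive, on the log2(RPKM + 1) scale) ran from -0.10 for H2-D1 to 0.33 for Tap1, with a median of 0.09. For all genes tested, the median was -0.18, which shifted to -0.01 with quantile normalization. The difference was above 0 for 8 of 10 members, compared with 35.7% of all genes. With values as deposited each of the 10 lay above the median of all genes, and with quantile normalization 8 did. With the libraries scaled to the same 75th percentile, the median was -0.11 for the members and -0.37 for all genes. Standard errors of the members were 0.14 to 0.26, against a median of 0.42 over all genes. The 95% intervals of all 10 members lay within a 2-fold change in either direction, and those of 7 lay within 1.5-fold.

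**Figure D1:**
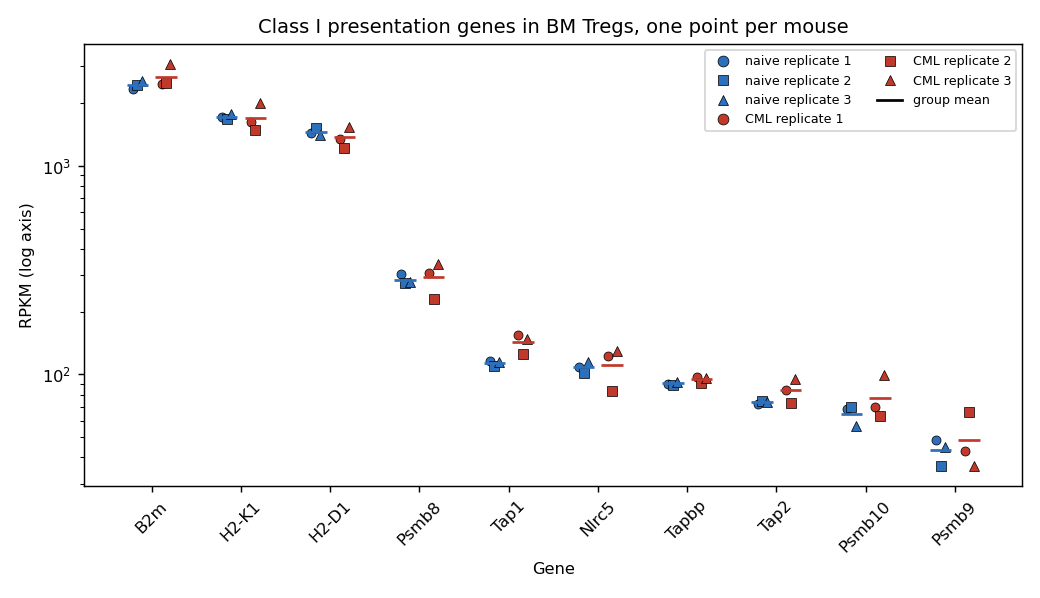
RPKM of the 10 genes (log axis) in BM Tregs, ordered by the naive mean, with 1 point for each mouse (blue, naive; red, CML; the shape gives the replicate) and a bar for each group mean. B2m, H2-K1 and H2-D1 sit far above the other genes in every library, and the CML points spread more widely than the naive points for every gene.

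**Figure D2:**
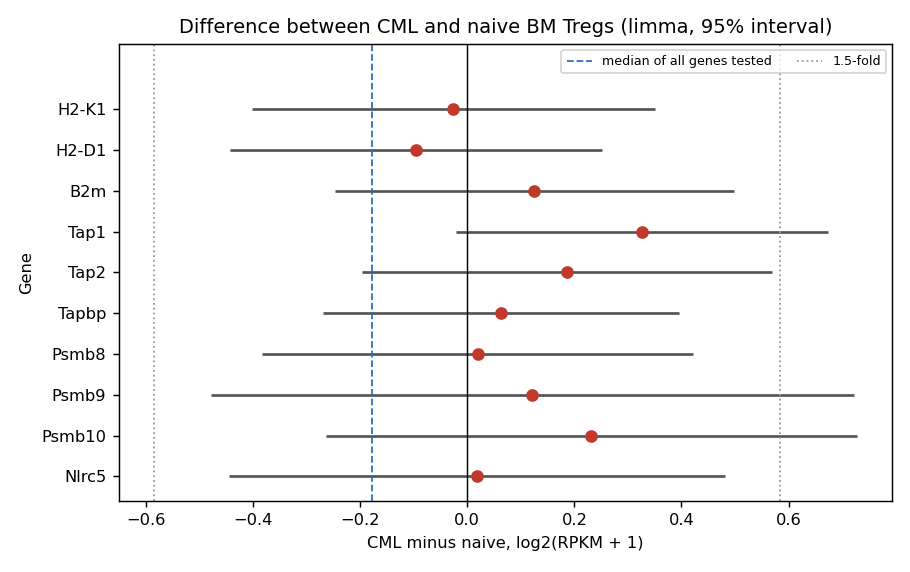
Difference between CML and naive BM Tregs for each gene on the log2(RPKM + 1) scale (points) with the 95% interval of the limma fit (bars, n = 3 mice for each group). The solid line is 0, the dashed line is the median of all genes tested (-0.18) and the dotted lines mark a 1.5-fold change; every interval includes 0, and that of Tap1 only just does.

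Transcripts of the chains that reach the cell surface are given first, as RNA and not as protein. H2-K1, a classical heavy chain, had 1627, 1476 and 1998 RPKM in CML mice and 1710, 1677 and 1768 RPKM in naive mice. CML replicate 3 was above and the other 2 CML libraries were below all naive libraries. Means were 1700 ± 268 and 1718 ± 46.5 RPKM (SD, n = 3), and the fitted difference was -0.03 (95% interval -0.40 to 0.35, limma adjusted p = 0.966). H2-D1, the other classical heavy chain, had 1348, 1218 and 1541 RPKM in CML mice and 1441, 1522 and 1410 RPKM in naive mice. Again CML replicate 3 was the highest and CML replicate 2 the lowest of the 6. The fitted difference of H2-D1 was -0.10 (95% interval -0.44 to 0.25, limma adjusted p = 0.846). The heavy chain genes are close copies of each other and of other class I genes, and how reads shared between them were assigned is not given in the sources used here.

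B2m, the light chain that pairs with class I heavy chains, had 2456, 2479 and 3069 RPKM in CML mice and 2335, 2434 and 2533 RPKM in naive mice. It ranked 17 by mean level among all features, and H2-K1 and H2-D1 ranked 22 and 27. Only CML replicate 3 lay outside the naive range. The fitted difference of B2m was 0.13 (95% interval -0.25 to 0.50, limma adjusted p = 0.808), but it turned to -0.12 with quantile normalization and to -0.08 with the libraries scaled to the same 75th percentile. Ratios between these chains do not depend on a single scaling factor for each library, but quantile normalization can change them. With it, the fitted differences were 0.086 for H2-K1 and -0.12 for B2m, compared with -0.03 and 0.13 as deposited. The order of the 2 genes thus turned around, and the ratios below are of the deposited values only. H2-K1 relative to B2m was 0.663, 0.595 and 0.651 in CML mice and 0.732, 0.689 and 0.698 in naive mice. All CML libraries lay below all naive libraries, with means of 0.636 ± 0.0358 and 0.706 ± 0.0229 (SD, n = 3; exact 2-sided permutation test, p = 0.1, the smallest that 3 mice against 3 allow; 0.2 after adjustment over the 2 chain ratios). The ratio of H2-D1 to H2-K1, 0.808 ± 0.0319 in CML and 0.849 ± 0.0554 in naive Tregs, overlapped (exact 2-sided permutation test, p = 0.4).

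Among the 10 members, Tap1 alone had groups that did not overlap. Tap1, which forms the peptide pump with Tap2, had 155, 126 and 147 RPKM in CML mice and 116, 110 and 114 RPKM in naive mice. Every CML library was above every naive library, as it was for 4.84% of all genes tested. Means were 143 ± 15.1 and 113 ± 3.13 RPKM (SD, n = 3), a fitted difference of 0.33 (fold 1.25, standard error 0.15, 95% interval -0.02 to 0.67, unadjusted p = 0.0617, limma adjusted p = 0.539). Relative to the median of all genes the difference of Tap1 was 0.50, or 0.38 with quantile normalization. Leaving out each library in turn kept the difference of Tap1 between 0.26 and 0.41. With the libraries scaled to the same 75th percentile, the difference of Tap1 was 0.12 (unadjusted p = 0.533) and its groups overlapped, and over the 16 alternative fits its adjusted p ran from 0.27 to 0.894.

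Tap2, the partner of Tap1 in the pump, had 84.2, 73.2 and 94.8 RPKM in CML mice and 72.3, 74.5 and 73.4 RPKM in naive mice. The naive libraries lay close together, CML replicates 1 and 3 were above them, and CML replicate 2 was among them. The fitted difference of Tap2 was 0.19 (95% interval -0.20 to 0.57, limma adjusted p = 0.719). Tapbp, which holds empty class I molecules at the transporter, was the steadiest member, with 97.0, 90.8 and 96.2 RPKM in CML mice and 90.4, 89.0 and 92.2 RPKM in naive mice. Its fitted difference was 0.06 (95% interval -0.27 to 0.40, limma adjusted p = 0.898).

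The immunoproteasome is formed when Psmb8, Psmb9 and Psmb10 take the places of the standard catalytic subunits Psmb5, Psmb6 and Psmb7. Psmb8 had 308, 231 and 337 RPKM in CML mice and 302, 275 and 278 RPKM in naive mice. CML replicate 2 was below all naive libraries and the other 2 CML libraries were above them, and the fitted difference was 0.02 (95% interval -0.38 to 0.42, limma adjusted p = 0.978). Psmb10 had 69.7, 63.3 and 99.2 RPKM in CML mice and 67.9, 69.6 and 56.8 RPKM in naive mice, with CML replicate 3 far above the rest (difference 0.23, 95% interval -0.26 to 0.73, limma adjusted p = 0.727). Without CML replicate 3, the difference of Psmb10 was 0.041, and without CML replicate 2 it was 0.36. Psmb9 had 43.0, 65.8 and 36.5 RPKM in CML mice and 48.8, 36.4 and 44.9 RPKM in naive mice (difference 0.12, 95% interval -0.48 to 0.72, limma adjusted p = 0.892). Without CML replicate 2, the least deep library, the difference of Psmb9 was -0.12. The groups of Psmb9 overlapped, unlike those of Tap1, and the difference between both genes was not tested.

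Each immunoproteasome subunit was compared with the subunit it replaces, within each library. Psmb8 exceeded Psmb5 by 16.2, 30.4 and 55.8 times in CML mice and by 40.1, 17.7 and 28.7 times in naive mice. Psmb5 was low in all libraries (6.05 to 19.0 RPKM). Psmb9 and Psmb6 were near parity, with ratios of 1.24, 1.06 and 0.808 in CML mice and 1.08, 0.799 and 1.28 in naive mice. The ratio of Psmb10 to Psmb7 was 1.11, 1.90 and 1.67 in CML mice and 1.63, 2.01 and 2.16 in naive mice. Psmb7 had 62.7, 33.3 and 59.3 RPKM in CML mice and 41.6, 34.6 and 26.3 RPKM in naive mice, with a fitted difference of 0.56 (limma adjusted p = 0.587). CML and naive libraries overlapped for all 3 ratios (exact 2-sided permutation tests, p = 0.9, 0.8 and 0.3, each 0.9 after adjustment over the 3 ratios).

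Nlrc5, which drives class I genes through the X and Y boxes, had 122, 83.1 and 129 RPKM in CML mice and 109, 101 and 114 RPKM in naive mice. CML replicate 2 was below and the other 2 CML libraries were above all naive libraries. The fitted difference of Nlrc5 was 0.02 (95% interval -0.45 to 0.48, limma adjusted p = 0.981), a value smaller than the spread between CML mice.

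In naive Tregs, the order of levels per kilobase was B2m, H2-K1, H2-D1, Psmb8, Tap1, Nlrc5, Tapbp, Tap2, Psmb10 and Psmb9. The ranges of neighbors in this order did not overlap except for Tap1 and Nlrc5. In CML Tregs the order of the means was the same, but the ranges of H2-K1 and H2-D1 overlapped, as did those of all neighbors from Tap1 to Psmb9. The lowest member, Psmb9, was still at the 82.5th percentile of the genes tested, and B2m at the 99.9th percentile.

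CML mice varied more among themselves than naive mice did for each of the 10 genes. The coefficient of variation was 3.60% to 31.8% (median 14.4%) in CML and 1.5% to 14.5% (median 4.02%) in naive Tregs, and it was larger in CML for 76.5% of all genes tested. CML replicate 3 was the highest of the 6 libraries for 7 members, and CML replicate 2 was the lowest of the CML libraries for 8 members. Psmb9 went the other way, with its highest value in CML replicate 2. Across the 6 libraries, the log2 values of Psmb9 had a Pearson r of -0.70 with the mean of the other 9 members, whereas r was 0.37 to 0.93 for the others. These values share the depth and scaling of their library and are given as a description. Without CML replicate 2, 6 members (Tap1, Tap2, Tapbp, Psmb8, Psmb10 and Nlrc5) were higher in both remaining CML libraries than in all naive libraries, compared with 13.9% of all genes in that arrangement, and Tap1 had an unadjusted p of 0.0138 (limma adjusted p = 0.27). Without CML replicate 3, H2-K1 and H2-D1 were lower in the remaining CML libraries than in all naive libraries and Tap1 was higher, compared with 22.7% of all genes lower and 7.92% higher in that arrangement. CML replicate 2 was the lowest CML library for 8 members and CML replicate 3 the highest for 7. Leaving either out thus favors these counts, and the shares of all genes do not allow for this. No conclusion is drawn from them.

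**Figure D3:**
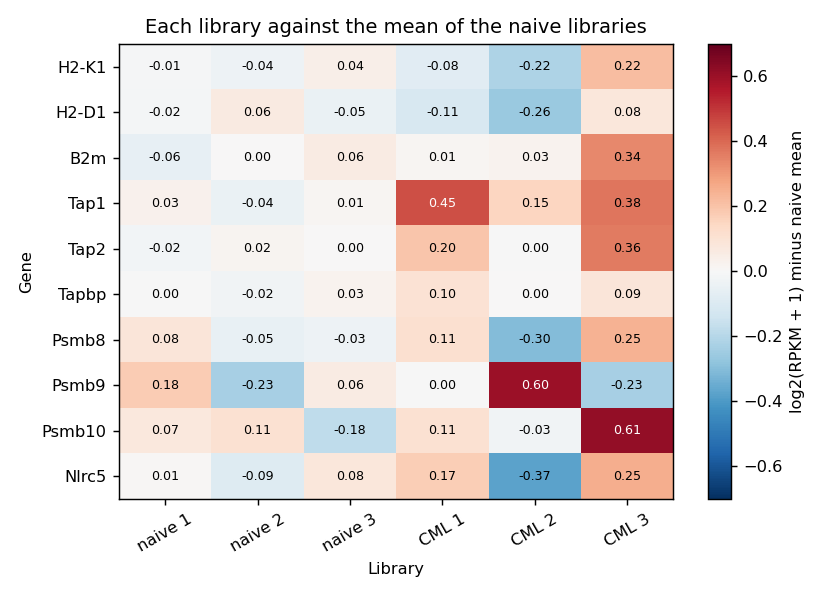
Difference of each library from the mean of the 3 naive libraries on the log2(RPKM + 1) scale, for each gene (rows) and library (columns). CML replicate 3 is above the naive mean for every gene but Psmb9, and CML replicate 2 is mixed, from -0.37 for Nlrc5 to 0.60 for Psmb9.

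The genes whose pattern over the 6 libraries was most like the mean of the members were sought among 7828 other genes whose mean reached 10 RPKM. They were Rrm2, a subunit of ribonucleotide reductase (Pearson r 0.99), Mtx1, of the mitochondrial outer membrane (0.99), Orai1, the pore of the store-operated calcium channel (0.99), Furin, a proprotein convertase (0.99), and Rpn2, of the oligosaccharyltransferase (0.99). All 5 were highest in CML replicate 3, as was the mean of the members that they were chosen to match. In all, 53 genes had an r above 0.95 over these 6 libraries.

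The rest of the pathway was read from 7 lists of 67 genes. Of these, 57 were tested, 4 were higher and 2 lower in CML Tregs at an unadjusted p under 0.05 (2.92% and 6.77% of all genes in each direction), and none passed an adjusted p of 0.05. Of 9 genes of peptide loading and translocation (median difference 0.29), 7 had a difference above 0 and 2 below 0, from -0.59 to 0.41. Of the 9, 1 was higher at the unadjusted p. This was Pdia3, the disulfide isomerase of the loading complex, with 402, 296 and 436 RPKM in CML mice and 283, 289 and 271 RPKM in naive mice. The groups of Pdia3 did not overlap, with CML higher, as for 4.84% of all genes tested (difference 0.41, limma adjusted p = 0.508). Calr, the chaperone of assembled class I molecules, had means of 416 ± 65.3 and 326 ± 26.1 RPKM (SD, n = 3; difference 0.34, limma adjusted p = 0.559), and Hspa5, a general chaperone, 242 ± 23.6 and 187 ± 38.8 RPKM (difference 0.38, limma adjusted p = 0.558). The libraries of Calr and Hspa5 overlapped between the groups.

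Of 5 proteasome activator and assembly genes, none had an unadjusted p under 0.05 (median difference 0.05). Psme1 and Psme2 encode the interferon-inducible cap that opens the proteasome. Their means were 339 ± 28.6 and 328 ± 41.9 RPKM for Psme1 and 36.9 ± 12.4 and 34.0 ± 3.13 RPKM for Psme2 (SD, n = 3; limma adjusted p = 0.924 and 0.95). None of the 6 cytosolic peptidases tested and none of the 3 standard catalytic subunits had an unadjusted p under 0.05 (median differences 0.05 and 0.14). Thop1, a cytosolic oligopeptidase, had the smallest p of the peptidases (difference -0.59, limma adjusted p = 0.719).

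Of 23 class I heavy chains beyond H2-K1 and H2-D1, 14 were tested (median difference 0.02). Of these, 1, Cd1d1, which presents lipids, was lower at the unadjusted p, compared with 6.77% of all genes. Cd1d1 had 7.48, 9.86 and 7.06 RPKM in CML mice and 12.2, 16.6 and 17.1 RPKM in naive mice (difference -0.84, limma adjusted p = 0.465). The nonclassical genes H2-T22 (136 ± 15.8 and 110 ± 6.27 RPKM) and H2-Q7 (420 ± 33.2 and 359 ± 23.6 RPKM; SD, n = 3) did not overlap between the groups. Both were higher in CML, with differences of 0.29 and 0.23 (limma adjusted p = 0.584 and 0.627). Such separation with CML higher held for 4.84% of all genes tested. Reads of H2-Q7 and its near-identical neighbors cannot be separated with certainty.

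Fitted differences of the interferon gamma signaling genes ran in both directions, and none passed an adjusted p of 0.05. Ifngr1, the ligand-binding chain of the interferon gamma receptor, had 673, 504 and 582 RPKM in CML mice and 280, 311 and 326 RPKM in naive mice. No library of one group reached the other, and the fold was 1.91 (difference 0.93, standard error 0.16, limma adjusted p = 0.0967). Over the 16 alternative fits its adjusted p ran from 0.0371 to 0.469 and was under 0.05 in 3, and its difference stayed between 0.72 and 1.04. Ifngr2, the signal-transducing chain of the same receptor, had 8.81, 10.9 and 17.1 RPKM in CML mice and 24.9, 22.7 and 23.7 RPKM in naive mice. All CML libraries were below all naive libraries (difference -0.95, limma adjusted p = 0.369). Socs1, an inhibitor of the receptor's Jak kinases, had 51.0, 35.9 and 50.0 RPKM in CML mice and 27.1, 21.2 and 23.6 RPKM in naive mice (difference 0.89, limma adjusted p = 0.273). Socs1 was thus higher in all CML libraries, whereas Irf1, a transcription factor that activates class I genes, overlapped (226 ± 41.4 and 176 ± 22.98 RPKM; SD, n = 3; limma adjusted p = 0.581). Of the 11 genes of this list, 3 were higher and 1 lower at the unadjusted p, compared with 2.92% and 6.77% of all genes (median difference 0.22). The groups did not overlap for 3 genes higher and 1 lower in CML, compared with 4.84% and 12.2% of all genes.

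Among the 9 genes of the Nlrc5 complex and its class II homolog, none had an unadjusted p under 0.05 (median difference -0.23). Ciita, the class II coactivator, had 6.01, 0.369 and 1.23 RPKM in CML mice and 8.18, 3.66 and 7.64 RPKM in naive mice (difference -1.37, limma adjusted p = 0.566). Rfx5, which binds the X box, had 20.2, 4.998 and 14.4 RPKM in CML mice and 26.9, 16.6 and 17.8 RPKM in naive mice (limma adjusted p = 0.646). Rfxank, a partner of Rfx5, had a difference of -1.47 (limma adjusted p = 0.688), with the value 0 in CML replicate 2. Each of these 3 genes was lowest in CML replicate 2.

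**Figure D4:**
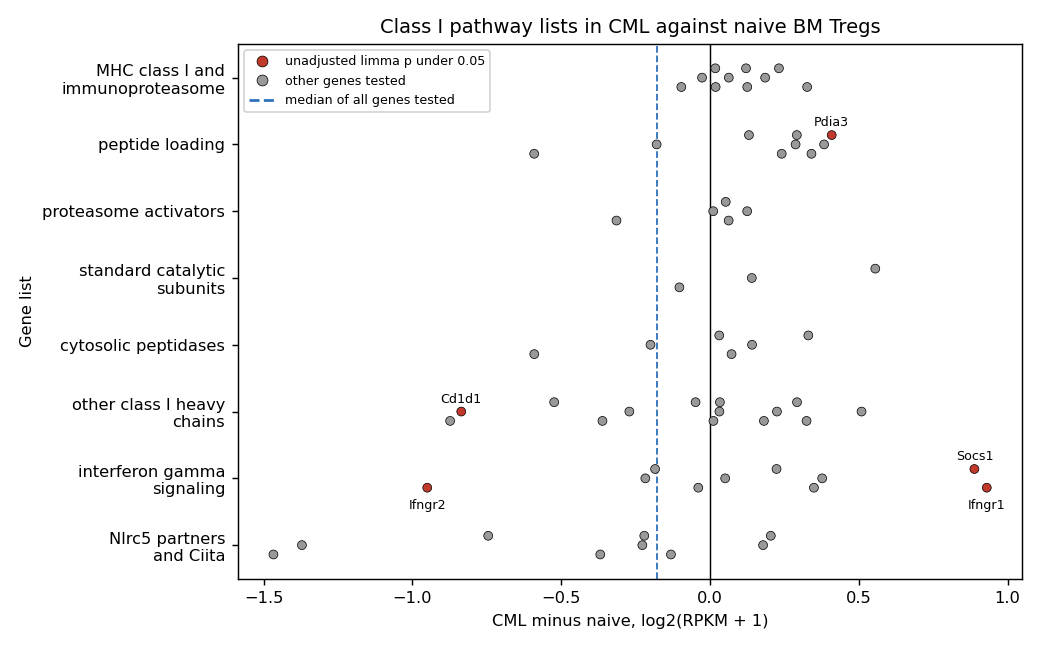
Difference between CML and naive BM Tregs on the log2(RPKM + 1) scale for the tested genes of the 10 members and of the 7 other lists except 1 gene that is not reported here, with genes at an unadjusted limma p under 0.05 in red and named. The members lie between -0.10 and 0.33, whereas interferon gamma signaling runs from Ifngr2 (-0.95) to Ifngr1 (0.93).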

How the data were processed

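The authors amplified RNA of sorted BM Tregs by SMART-Seq v4. Single-end reads went through SeqMan NGen, and ArrayStar then gave gene values. The deposited value of each feature was taken to be RPKM. Neither the paper nor the headers name the unit, and this reading rests on the values. Sums differ between libraries, and value times length of small RNA genes falls in part on repeated steps. With the first step left out, 31.7% (naive replicate 3) to 58.5% (CML replicate 2) of the low values lay near whole steps. The estimated reads are therefore approximate. The step size gave the estimated reads, with the longest principal GENCODE M21 transcript as member length. Build GRCm38 is from the submitters' processing notes. The value 0.001 marks features without reads and was set to 0.

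CML and naive libraries, grouped by their titles, were compared with limma 3.58.1 (R 4.3.3) on log2(RPKM + 1) for the 13923 features with a mean of at least 1 RPKM, with a trended prior and Benjamini-Hochberg adjustment over all of them. For low genes this scale makes folds too small. Ratios within libraries were compared with exact permutation tests in Python 3.11.15. The authors' normalization cannot be undone, and no count test was run. Named genes are the members, Irf1, Psme1, Psme2, Ciita, the standard catalytic subunits, genes of a list at an adjusted p under 0.05 or else up to 3 with its smallest unadjusted p, markers of the labelled cell, and the 5 genes most like the mean of the members. H2-Q8, H2-Q9, H2-T9, H2-T10, H2-L and Nrdc were not analysed here. Members and lists were chosen with earlier results of these data known. A gene of the interferon gamma list and a B cell marker were counted in their lists but are not reported here.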

Additional observations from a re-analysis of the deposited data

How the results depend on the processing

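Alternatives changed the pseudocount, the filter, the scaling, the variance model, the library weights or the libraries used. In the 160 alternative fits of the members (10 genes, 16 settings), no adjusted p was below 0.27, and 143 kept their direction. The same 75th percentile turned 6 small differences negative: B2m -0.085, Tap2 -0.022, Tapbp -0.14, Psmb8 -0.19, Psmb9 -0.084 and Nlrc5 -0.19. It moved the median member to -0.11. Quantile normalization turned H2-K1 to 0.086 and B2m to -0.12, and the same sum without the 10 highest features turned H2-K1 to 0.055. Without 1 library each, differences ran from -0.15 to 0.070 for H2-K1, from -0.094 to 0.18 for Psmb8, from -0.12 to 0.30 for Psmb9 from -0.10 to 0.21 for Nlrc5, from 0.041 to 0.36 for Psmb10, from 0.020 to 0.18 for B2m, from 0.096 to 0.28 for Tap2, from 0.045 to 0.093 for Tapbp and from -0.18 to -0.015 for H2-D1.

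Members at an unadjusted p under 0.05 numbered 1, Tap1, in place of 0 with a pseudocount of 0.001, without the filter, with quantile normalization, with the same sum without the 10 highest features, with library weights, and without CML replicate 2 (0 to 1 without 1 library each). In these settings 8.5% to 12.6% of all genes passed it. Members with groups apart numbered 2 with the same 75th percentile, both lower (20.6% of all genes lower, 2.57% higher), and 3 with the same sum, all higher (6.73% of all genes higher, 10.7% lower), in place of 1. They numbered 1 to 6 without 1 library each, where 6.73% to 13.9% of all genes were higher and 15.98% to 23.01% lower. The median member difference was 0.03 to 0.18 without 1 library each. Genes called numbered 24 in the main fit used here. They numbered 0 with a pseudocount of 0.001, 1 without the filter and 13 with a mean of at least 10 RPKM. With the same 75th percentile they numbered 46, with quantile normalization 53, with the same sum 48 and without a trend 11. The number was 45 with library weights and 0 to 29 without 1 library each. Of the genes at an unadjusted p under 0.05, 30.1% were higher in the main fit used here. The share was 49.5% with quantile normalization and 11.04% with the same 75th percentile. The causes were not tested.

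The replicate numbers belong to different mice, and libraries with the same number did not deviate together (Pearson r -0.019 to -0.0016 across genes). With a replicate block, genes called numbered 1 and members at an unadjusted p under 0.05 numbered 0. Paired by number, the smallest possible p for a ratio is 0.25, and the ratios of Psmb10 to Psmb7, H2-D1 to H2-K1 and H2-K1 to B2m reached it. Without 1 library each, the log2 difference of the ratio ran from -0.30 to 0.59 for Psmb8 to Psmb5, from -0.21 to 0.15 for Psmb9 to Psmb6, from -0.49 to -0.11 for Psmb10 to Psmb7, from -0.11 to -0.02 for H2-D1 to H2-K1 and from -0.18 to -0.10 for H2-K1 to B2m. Depth limits CML replicate 2 most, and estimated reads cover counting error only.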
